A study of Homo sapiens with 4 samples.

Results

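The kinesin and centromere protein (CENP) genes were examined for FOXK2 peaks in OVCAR5 cells, an established ovarian cancer line derived from ascites. Members were taken by name and not by any measured value. They were peaks whose assigned gene was a KIF gene with a number, a KIFC gene or a CENP gene with a letter. The set itself was chosen with earlier results of these data known. Of 20056 protein-coding genes in RefSeq, 63 carried such a name (42 KIF and 21 CENP genes). They received 33 of the 12471 peaks of replicate 1 (26 genes) and 74 of the 27281 peaks of replicate 2 (35 genes). The single condition was untreated OVCAR5 culture in RPMI medium with serum, immunoprecipitated with an antibody against FOXK2 in 2 biological replicates, and the 2 matching input libraries were not analysed here. RNA was not measured in these files, so whether the cells express each gene was not tested here.

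Kinesins are motor proteins that use ATP to walk along microtubules or to take microtubules apart. They carry vesicles, endosomes and organelles in every cell, build cilia, and during division assemble the spindle, move chromosomes and complete cytokinesis. CENP proteins mark the centromere with the histone variant CENP-A, bind it through the constitutive centromere-associated network (CCAN), and build the outer kinetochore that holds spindle microtubules. FOXK2 is a forkhead transcription factor, and forkhead proteins recognise the heptamer TGTTTAC, read as GTAAACA on the opposite strand.

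The strongest of the paired peaks, in which a replicate 1 and a replicate 2 peak of the same gene overlapped by at least 1 bp, are shown as hg38 sequence on the plus strand. The set was chosen to show where the heptamer lay in the 4 best-scoring named pairs that held it, with TGTTTAC or GTAAACA in capitals. The CENPQ run is chr6:49463294-49463399, KIF16B is chr20:16475384-16475583, KIF24 is chr9:34328677-34328876 and KIFC3 is chr16:57797620-57797734.
CENPQ: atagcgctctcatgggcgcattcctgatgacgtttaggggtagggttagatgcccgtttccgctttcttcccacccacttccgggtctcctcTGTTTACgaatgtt
KIF16B: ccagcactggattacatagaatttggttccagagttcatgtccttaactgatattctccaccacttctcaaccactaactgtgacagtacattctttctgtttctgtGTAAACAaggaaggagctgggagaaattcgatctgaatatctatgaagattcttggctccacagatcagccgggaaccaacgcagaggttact
KIF24: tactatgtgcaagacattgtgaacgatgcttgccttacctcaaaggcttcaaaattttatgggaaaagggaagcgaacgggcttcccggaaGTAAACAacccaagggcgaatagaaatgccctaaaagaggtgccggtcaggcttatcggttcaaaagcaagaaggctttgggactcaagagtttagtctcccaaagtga
KIFC3: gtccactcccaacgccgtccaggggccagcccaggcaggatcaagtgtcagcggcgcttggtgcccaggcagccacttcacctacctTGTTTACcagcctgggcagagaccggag

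The 2 best-scoring named pairs with no heptamer are shown for contrast. Capitals mark CCAAT or its complement ATTGG, the letters bound by NF-Y in many promoters of cell cycle genes. Not every pair divides this way. The CENPE and KIFC1 pairs held neither TGTTTAC nor CCAAT within 100 bp of their peak centres. The CENPQ pair held TGTTTAC and, in replicate 2, CCAAT as well. The CENPF run is chr1:214602964-214603163 and the KIF20A run is chr5:138179016-138179111, both in hg38 on the plus strand.
CENPF: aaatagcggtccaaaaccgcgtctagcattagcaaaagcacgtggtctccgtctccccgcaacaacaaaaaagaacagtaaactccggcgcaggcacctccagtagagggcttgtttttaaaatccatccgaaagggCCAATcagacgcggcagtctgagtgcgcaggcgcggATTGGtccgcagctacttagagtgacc
KIF20A: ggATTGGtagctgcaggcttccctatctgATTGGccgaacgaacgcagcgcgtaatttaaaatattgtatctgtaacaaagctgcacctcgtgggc

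In the 4 runs with the heptamer, its central base lay 4 bp (CENPQ), 11 bp (KIF16B), 5 bp (KIF24) and 9 bp (KIFC3) from the midpoint of the peak overlap. Across all 21 pairs of the same gene, 6 pairs in 5 genes (CENPJ, CENPQ, KIF16B, KIF24 and KIFC3) held TGTTTAC within 20 bp of the midpoint, at 4 to 11 bp. With the related heptamers TGTTTAT and TGTTGAC counted as well, 9 of 21 pairs held a forkhead heptamer within 20 bp. The share within 20 bp over all 9343 pairs of the lists is not given here. Within 100 bp of the peak centre, TGTTTAC was in 31.8% of the overlapped replicate 1 peaks of these genes against 34.3% of all overlapped peaks. In replicate 2 it was in 28.6% against 34.9%. The other pairs, among them those of CENPF, CENPE, KIF20A and KIFC1, had no forkhead heptamer within 20 bp of the midpoint. This says nothing on whether FOXK2 contacts DNA at these places.

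**Figure D1:**
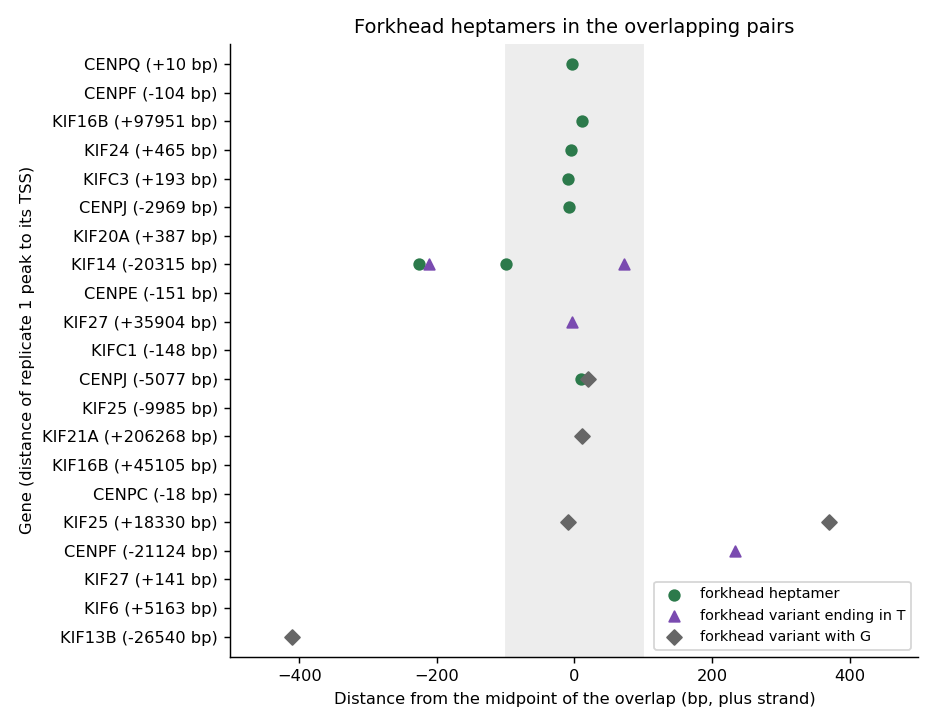
Position of forkhead heptamers around the midpoint of each of the 21 overlapping pairs (x axis, bp on the plus strand; y axis, gene with the distance of its replicate 1 peak to the transcription start site; grey band, 100 bp to each side). Circles are TGTTTAC, triangles TGTTTAT and diamonds TGTTGAC; 6 circles sit within 11 bp of the midpoint, while most other rows are empty inside the band.

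Among peaks assigned to these genes, the strongest pairs lay at CENPQ and CENPF, at an intron of KIF16B, and near the listed starts of KIF24 and KIFC3. Each list ranks its peaks by a HOMER peak score, the number of sequenced tags in the peak scaled to the library, so scores were compared only within a list, as a rank (1 is the highest) or a percentile (100 is the highest). Values are given for each replicate in turn, since 2 replicates give no useful SD.

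CENPQ, a CCAN subunit, had a promoter peak with a score of 14.9 in replicate 1 (79 tags, exact Poisson 95% interval 62.5 to 98.5, rank 603) and 31.4 in replicate 2 (211 tags, 183 to 241, rank 485). This was the best mean percentile among the paired peaks of these genes, 95.1 in replicate 1 and 98.2 in replicate 2. The start of MMUT, a mitochondrial enzyme gene, lay 140 bp and 119 bp from the peak centres, so the peak cannot be assigned to either gene alone. CENPF, a large protein of the outer kinetochore that accumulates before mitosis, had a promoter peak scored 14.3 in replicate 1 (76 tags, 59.9 to 95.1, rank 690) and 29.7 in replicate 2 (200 tags, 173 to 230, rank 546). The CENPQ and CENPF peaks were above the 90th percentile of both lists.

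CENPE, the kinesin that carries chromosomes to the spindle equator, had a promoter peak scored 7.55 in replicate 1 (40 tags, rank 3663) and 10.6 in replicate 2 (71 tags, rank 7022). CENPC, which ties the CENP-A nucleosome to the kinetochore, had a promoter peak scored 3.96 in replicate 1 (21 tags, rank 11262) and 9.22 in replicate 2 (62 tags, rank 9092). The CENPE peaks stood in the upper part of both lists, whereas the CENPC peak was among the weakest of replicate 1, at percentile 7.54, and at percentile 66.2 in replicate 2. No TGTTTAC lay within 100 bp of the peak centre at CENPE, CENPC or the CENPF promoter in either replicate.

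CENPJ, named CPAP in RefSeq, is needed to build centrioles. Its paired peaks lay upstream of its listed start, which is also its GENCODE start, but inside the longer span that RefSeq gives the gene, at -2969 bp in replicate 1 (score 8.49, 45 tags, rank 2809) and -2927 bp in replicate 2 (score 12.8, 86 tags, rank 4690). A further pair lay at -5077 bp (5.85, rank 6145) and -5088 bp (9.22, rank 9092). All 4 of these peaks held TGTTTAC. At the CENPJ start itself, replicate 2 had a promoter peak at -4 bp (score 9.96, rank 7837) that no replicate 1 peak overlapped.

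Among kinesins of division, KIF20A and KIFC1 had paired promoter peaks, KIF14 had a pair away from its start, and KIF11, KIF20B and KIF23 had none. KIF20A (MKLP2), which acts in cytokinesis, had a promoter peak scored 7.55 in replicate 1 (40 tags, rank 3663) and 11.5 in replicate 2 (77 tags, rank 5943). BRD8, a gene of a chromatin complex, starts 162 bp and 148 bp from these centres. A stronger pair, assigned to BRD8 and holding TGTTTAC, was centred 653 bp and 628 bp from the KIF20A start in GENCODE (scores 13.8 and 27.7, ranks 776 and 666). KIFC1 (HSET), a minus-end motor that focuses spindle poles and clusters extra centrosomes, had a promoter peak scored 5.28 in replicate 1 (28 tags, rank 7370) and 12.8 in replicate 2 (86 tags, rank 4690). Its percentile was 38.9 in replicate 1 and 82.6 in replicate 2. Over all 9343 pairs of the lists the median percentiles were 59.7 and 77.9, and the replicate 2 percentile was the higher in 89.4%.

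KIF14, a motor of late cytokinesis, had a pair at -20315 bp (score 7.36, 39 tags, rank 3872) in replicate 1 and -20395 bp (score 11, 74 tags, rank 6475) in replicate 2. Both peaks lie inside DDX59, in exon 8 of 8 of the listed transcript, which was a different one in each replicate. The replicate 1 peak was annotated as 3′ UTR and the replicate 2 peak as exon. Replicate 2 peaks without a partner lay 812 bp (score 5.21, 35 tags, rank 20303) and 83049 bp (score 12, 81 tags, rank 5326) past the listed KIF14 start, both with TGTTTAC. KIF11 (Eg5), which pushes spindle poles apart, had a single assigned peak, in intron 17 of 21 in replicate 2 (score 4.46, 30 tags, rank 23158), with TGTTTAC. A weaker replicate 2 peak in its GENCODE span, 7014 bp downstream of its start there and 12011 bp upstream of its RefSeq start, was listed under IDE (score 3.87, rank 25743). KIF20B, another kinesin of cytokinesis, had a promoter peak in replicate 2 alone, at -68 bp from its start (score 9.96, 67 tags, rank 7837). KIF23 (MKLP1), the motor subunit of centralspindlin, had no peak in its span or 10000 bp upstream, and the nearest peak to its GENCODE start was 108536 bp away in replicate 1 and 54419 bp in replicate 2.

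The strongest pairs assigned to kinesins of transport and cilia lay at KIF16B, KIF24 and KIFC3. KIF16B, which moves early endosomes along microtubules, had a pair in intron 12 of 25, 97951 bp and 97957 bp from the start, with scores of 15.8 in replicate 1 (84 tags, 67.0 to 104, rank 515) and 21.1 in replicate 2 (142 tags, 120 to 167, rank 1332). It was the best-ranked peak of these genes in replicate 1. KIF16B also received the most peaks, 2 in replicate 1 and 7 in replicate 2, and spans 301 kb. KIF24, a kinesin-13 of the centriole that restrains cilium growth, had a promoter peak scored 11.5 (61 tags, rank 1263) and 19.6 (132 tags, rank 1643), with the start of NUDT2 at 722 bp and 760 bp. KIFC3, a minus-end motor of apical transport and cell junctions, had a pair 193 bp and 211 bp past its listed start, scored 10.6 (56 tags, rank 1588) and 20.1 (135 tags, rank 1544). From the KIFC3 start in GENCODE, this pair lay 65334 bp and 65352 bp downstream, within the gene. A stronger pair inside the KIFC3 span, 52623 bp and 52639 bp downstream of the GENCODE start, was listed under LOC388282 (scores 24.1 and 40.5, ranks 167 and 247) and ranked above every peak assigned to these genes.

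KIF27, a ciliary relative of the Hedgehog regulator KIF7, had a pair in intron 9 of 17 with scores of 7.36 (39 tags, rank 3872) and 9.67 (65 tags, rank 8342). KIF25, a kinesin-14 that restrains centrosome separation, had a pair at -9985 bp and -9945 bp from its listed start, inside the gene and 11647 bp and 11687 bp downstream of its GENCODE start, with scores of 5.66 (30 tags, rank 6554) and 9.67 (65 tags, rank 8342). Both pairs lacked TGTTTAC, and the KIF27 intron pair held TGTTTAT within 3 bp of the midpoint. A weaker KIF27 pair lay at 141 bp and -40 bp from its listed start (scores 3.96 and 6.84, ranks 11262 and 14705). The remaining genes with a pair were KIF21A, KIF6 and KIF13B, whose pairs had mean percentiles of 54.9, 11.98 and 8.41.

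**Figure D2:**
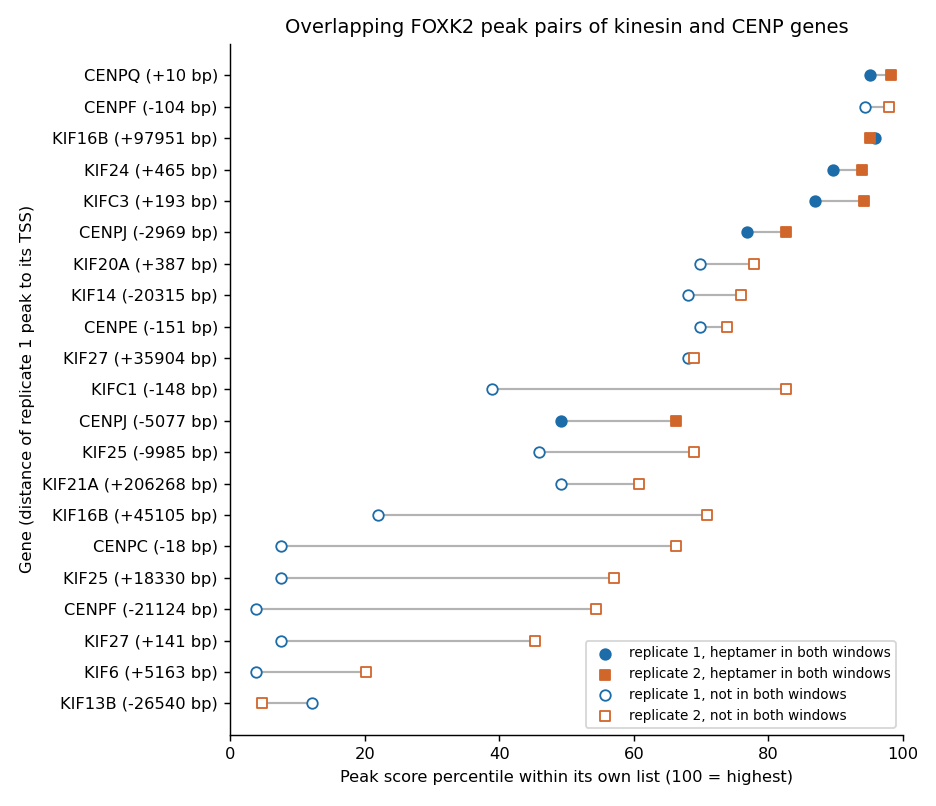
Score percentile within its own list (x axis) of both peaks in each of the 21 overlapping pairs (y axis, gene with the distance of its replicate 1 peak to the transcription start site). Circles are replicate 1, squares replicate 2, and filled symbols mark pairs with TGTTTAC within 100 bp of both centres; the replicate 2 percentile was the higher in 19 of 21 pairs, as in 89.4% of all 9343 pairs of the lists.

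The 63 genes divided into 16 with an overlapping pair, 4 with peaks in both replicates that did not overlap (KIF2B, KIF3B, KIF4B and KIF5C), 6 with peaks in replicate 1 only, 15 in replicate 2 only and 22 with none. Those in replicate 1 only were CENPP, CENPV, KIF12, KIF15, KIF1B and KIF2C. Those in replicate 2 only were CENPH, CENPI, CENPM, CENPO, CENPU, CENPW, CENPX, KIF11, KIF13A, KIF20B, KIF22, KIF2A, KIF3A, KIF3C and KIF5B. No peak was assigned to CENPA, CENPB, CENPK, CENPL, CENPN, CENPS, CENPT, KIF17, KIF18A, KIF18B, KIF19, KIF1A, KIF1C, KIF21B, KIF23, KIF26A, KIF26B, KIF4A, KIF5A, KIF7, KIF9 or KIFC2.

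By role, both outer kinetochore genes (CENPE and CENPF) had paired promoter peaks, while neither CENPA nor CENPB, which bind centromeric DNA, had an assigned peak. Over all protein-coding genes, 31.3% had a peak in replicate 1, 51.7% in replicate 2, 25.5% an overlapping pair and 9.02% a pair of promoter peaks. Of 15 CCAN genes, 3 had a peak in replicate 1 (20%) and 9 in replicate 2 (60%), with pairs at CENPC and CENPQ (13.3%). Of 13 kinesins that act in division, 6 had a peak in replicate 1 (46.2%), 7 in replicate 2 (53.8%) and 4 a pair (30.8%, at KIF20A, KIF14, KIFC1 and CENPE). Kinesin-14, the minus-end motors, had pairs at 3 of 4 genes (75%) and kinesin-3, the vesicle and organelle motors, at 3 of 7 (42.9%). The kinesin-8 genes (KIF18A, KIF18B and KIF19), which limit microtubule length, and the kinesin-11 genes (KIF26A and KIF26B) had no assigned peak. A replicate 2 peak 2088 bp from the KIF18A start in GENCODE, at rank 5326, was listed under METTL15. The shares of the groups lay on both sides of those of all genes, and with few genes in each no test was made.

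**Figure D3:**
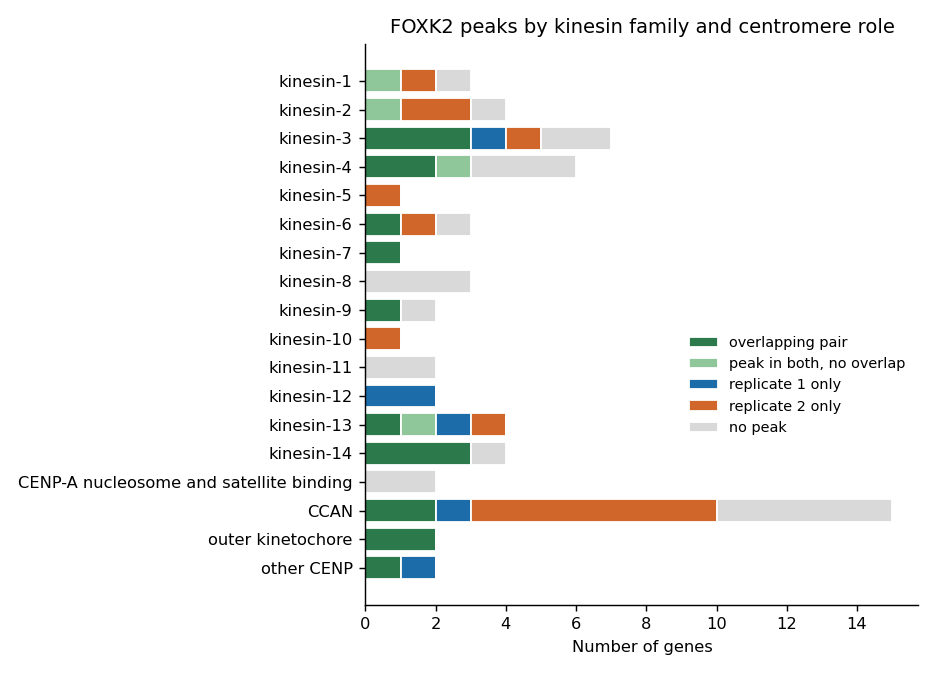
Number of genes (x axis) in each kinesin family and centromere role (y axis), coloured by whether FOXK2 peaks overlapped between replicates, occurred in both without overlap, in 1 replicate, or not at all. CENPE is drawn as kinesin-7 and again in the outer kinetochore; kinesin-8, kinesin-11 and the CENPA and CENPB group are grey throughout, and 7 of 15 CCAN genes had peaks in replicate 2 only.

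Over all 63 genes together, the counts stood near those of all protein-coding genes. A peak in replicate 1 was found for 26 of 63 genes (41.3%, Wilson 95% interval 29.96% to 53.6%, counting error only) against 31.3% of all genes, and in replicate 2 for 35 (55.6%, 43.3% to 67.2%) against 51.7%. Peaks in both replicates were found for 20 genes (31.7%, 21.6% to 44%) against 28.6%, and in either replicate for 41 (65.1%, 52.8% to 75.7%) against 54.4%. An overlapping pair was found for 16 genes (25.4%, 16.3% to 37.3%) against 25.5%, and a pair of promoter peaks for 7 (11.1%, 5.49% to 21.2%) against 9.02%. Pairs with both peaks within 1000 bp of the start were found for 9 genes (14.3%, 7.70% to 24.97%) against 11%. Apart from replicate 1 peaks and peaks in either replicate, these shares differed from those of all genes by less than 4 percentage points, and all of the intervals held the share of all genes. The genes are long, with a median of 51.7 kb against 24.1 kb for all protein-coding genes, and those with a peak had a median of 61.4 kb against 35.3 kb for those without. The part of gene length in these shares was not tested.

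A gene without an assigned peak can still lie beside a peak, because each peak was assigned to a single gene. That gene was not always the one with the nearest transcript start in GENCODE. The replicate 2 peak of CENPX, for example, lay 19088 bp from its listed start and 524 bp from a GENCODE transcript start of ASPSCR1. It was inside ASPSCR1 and annotated to intron 7 of 16, so that start need not be the main one of the gene. In GENCODE, 12 of 63 gene starts (19.0%, 11.2% to 30.4%) had an overlapping pair within 1000 bp, whatever gene the lists named, against 12.3% of all protein-coding genes. CENPN and CENPK, both CCAN subunits, were among them. The pair 493 bp and 549 bp from the CENPN start in GENCODE was assigned to CMC2 (scores 15.5 and 23.1, ranks 541 and 1069). The pair 168 bp and 146 bp from the CENPK start in GENCODE was assigned to PPWD1 (scores 10.8 and 18.3, ranks 1520 and 2013). CENPP, another CCAN gene, shares its start region with NOL8, and its replicate 1 peak (7.36, rank 3872) overlapped a replicate 2 peak listed under NOL8 (18.0, rank 2096). KIF9, a ciliary kinesin, had a pair 848 bp and 910 bp from its GENCODE start listed under KLHL18 (4.90 and 10.9, ranks 8397 and 6648).

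CENPA, the centromeric histone H3 variant, had high-ranked pairs nearby that the lists assigned to SLC35F6. One pair was 6194 bp and 6215 bp upstream of the CENPA start in GENCODE (scores 16.4 and 36.1, ranks 465 and 339). The other was 8245 bp and 8274 bp downstream of that start (scores 10.9 and 23.2, ranks 1439 and 1047). RefSeq places the CENPA start further downstream, so that both pairs lay upstream of it, at 27961 bp and 27982 bp for the first and 13522 bp and 13493 bp for the other. Under an assignment by gene span with 10000 bp upstream, 24 of 63 genes had a peak in both replicates (38.1%, 27.1% to 50.4%, against 32.3% of all protein-coding genes). Of these, 15 also did by the gene that the lists name. The 9 genes gained were CENPA, CENPB, CENPK, CENPN, CENPP, KIF1B, KIF2C, KIF3A and KIF9, and the 5 lost were KIF13B, KIF14, KIF21A, KIF2B and KIF4B.

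Promoter peaks made up a larger share of the assigned peaks in replicate 1 than in replicate 2, but this order turned with lists of equal length (39.4% in replicate 1 and 44.4%, 12 of 27, in replicate 2, against 21.7% and 24.2% of all peaks). In replicate 1, 13 of 33 were annotated as promoter-TSS (39.4%, 24.7% to 56.3%) against 21.7% of all peaks of that list. In replicate 2, 17 of 74 were (23.0%, 14.9% to 33.7%) against 18%. Within 1000 bp of the start lay 15 of 33 (45.5%, 29.8% to 62.0%) against 26.6%, and 21 of 74 (28.4%, 19.4% to 39.5%) against 22%. Introns held 24.2% of the replicate 1 peaks against 39%, and 35.1% of the replicate 2 peaks against 40.6%. Intergenic peaks made up 24.2% against 34.1% in replicate 1, and 35.1% against 36.5% in replicate 2. Beyond 100000 bp of the start lay 9.09% against 14.5% in replicate 1, and 17.6% against 16.3% in replicate 2. In the full lists, the promoter shares of all peaks lay below the interval of these genes in replicate 1 and within it in replicate 2. At equal length the replicate 2 interval (27.6% to 62.7%) also lay above the promoter-TSS share of all peaks.

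The median score percentile was lower than that of the whole list in both replicates, while the share of top peaks was close to it. The median percentile was 38.9 against 49.1 in replicate 1 and 38.5 against 49.98 in replicate 2. A percentile of 90 or more was reached by 3 of 33 replicate 1 peaks (CENPF, CENPQ and KIF16B) and by 6 of 74 replicate 2 peaks, 9.09% and 8.11% against 10.1% of all peaks in either list. Promoter peaks of these genes had a median percentile of 59.7 in replicate 1 and 70.8 in replicate 2, and their other peaks 34.9 and 30.9. The medians over the whole lists were 59.7 and 64.1 for promoter peaks and 45.8 and 46.9 for the others.

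**Figure D4:**
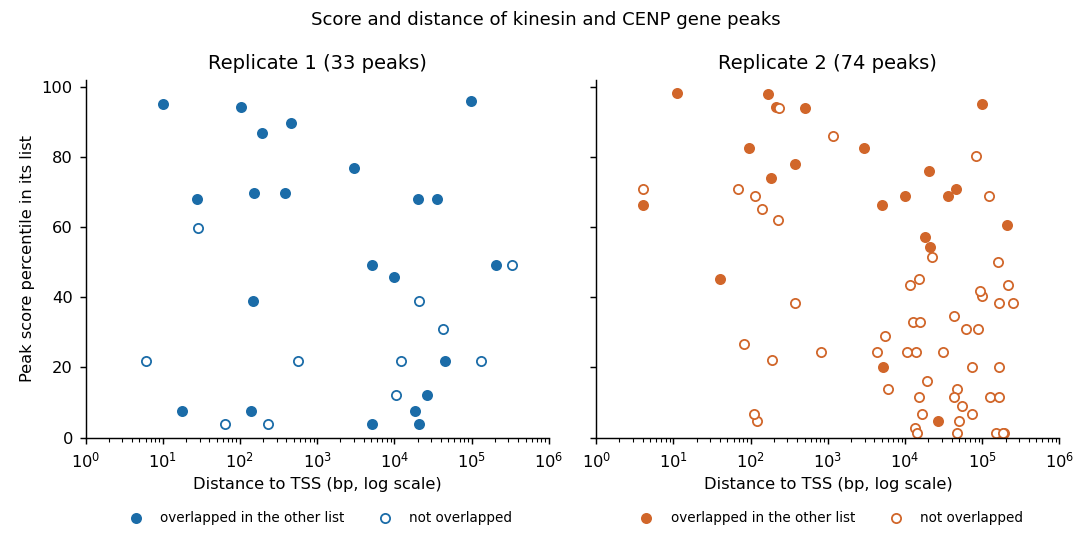
Score percentile (y axis) against distance to the transcription start site (x axis, bp, log scale) for the 33 replicate 1 and 74 replicate 2 peaks of kinesin and CENP genes. Filled points overlapped a peak of the other list; most replicate 2 peaks beyond 10000 bp are open and low, with the KIF16B pair far from its start an exception in both panels.

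Of the 33 replicate 1 peaks, 22 were overlapped by a replicate 2 peak (66.7%, 49.6% to 80.2%) against 74.9% of that list, and of the 74 replicate 2 peaks, 21 were overlapped (28.4%, 19.4% to 39.5%) against 34.2%. With lists of equal length the replicate 2 share was 66.7% (18 of 27) against 59.98% of all peaks. The centres of the 21 pairs of the same gene lay a median of 32 bp apart, with a range of 3 to 181 bp, against 29 bp for all pairs. KIF2A, a kinesin-13 that takes microtubules apart, had the best-ranked peak without a partner among these genes. It had a promoter peak scored 19.5 (131 tags, 110 to 155, rank 1670) and an intron peak scored 14.1 (95 tags, 76.9 to 116, rank 3768) in replicate 2, while the nearest replicate 1 peak was 105457 bp away. Of the 500 replicate 2 peaks nearest in rank to the promoter peak, 86.8% were overlapped. KIF2C, its relative at the kinetochore, showed the opposite, with a promoter peak in replicate 1 alone (6.60, 35 tags, rank 4892). Among its 500 neighbours in rank, 82.6% were overlapped.

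The heptamer TGTTTAC, searched on both strands in the 100 bp to each side of the peak centre, was present in 7 of 33 replicate 1 peaks (21.2%, 10.7% to 37.8%) against 30.5% of all peaks there, and in 23 of 74 replicate 2 peaks (31.1%, 21.7% to 42.3%) against 28.2%. The share was lower than in the list in replicate 1 and higher in replicate 2, and both intervals held the share of all peaks. Both orders turned in the higher-scoring part of each list, with 7 of 14 replicate 1 peaks (50%, against 35.7% of all peaks in that part) and 8 of 28 replicate 2 peaks (28.6% against 30.3%). All 7 replicate 1 peaks with the heptamer were overlapped by a replicate 2 peak, so that none of the 11 peaks without a partner held it (Wilson upper limit 25.9%), against 19.4% of all such peaks of replicate 1. In replicate 2, 6 of 21 overlapped peaks held it (28.6%, against 34.9% of all overlapped peaks) and 17 of 53 others (32.1% against 24.6%), so the order in these genes was opposite to that in the whole list, on few peaks and with no test. Promoter peaks with the heptamer were those of CENPQ and KIF24 in both replicates.

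The other motifs searched on both strands were the forkhead heptamers TGTTTAT and TGTTGAC, the AP-1 site TGACTCA, the core TTTGAA of the cell cycle homology region, through which the DREAM complex acts at many mitotic genes, and CCAAT. No motif lies inside another. TGTTTAT was in 6.06% of the replicate 1 peaks against 12.6% and in 12.2% of the replicate 2 peaks against 13%. TGTTGAC was in 9.09% against 8.31% and in 6.76% against 7.73%. TGACTCA was in 18.2% against 16.4% and in 18.9% against 16.6%, and in no promoter peak of these genes (0 of 13, upper limit 22.8%, and 0 of 17, upper limit 18.4%), where it was also rare over the whole lists (3.88% and 3.36% of all promoter peaks). TTTGAA was in 15.2% against 15% and in 23.0% against 15.7%. In promoter peaks it was in 3 of 13 (23.1% against 6.68% of all promoter peaks) and 4 of 17 (23.5% against 6.76%). In the other peaks of these genes it was in 10% against 17.3% and in 22.8% against 17.6%, on few peaks and with no test. CCAAT was in 39.4% (24.7% to 56.3%) against 25% and in 31.1% (21.7% to 42.3%) against 24.4%. Over all peaks of these genes, the shares for motifs other than TGTTTAC lay within 7 percentage points of those of the whole list. The exceptions were CCAAT in replicate 1 and TTTGAA in replicate 2.

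**Figure D5:**
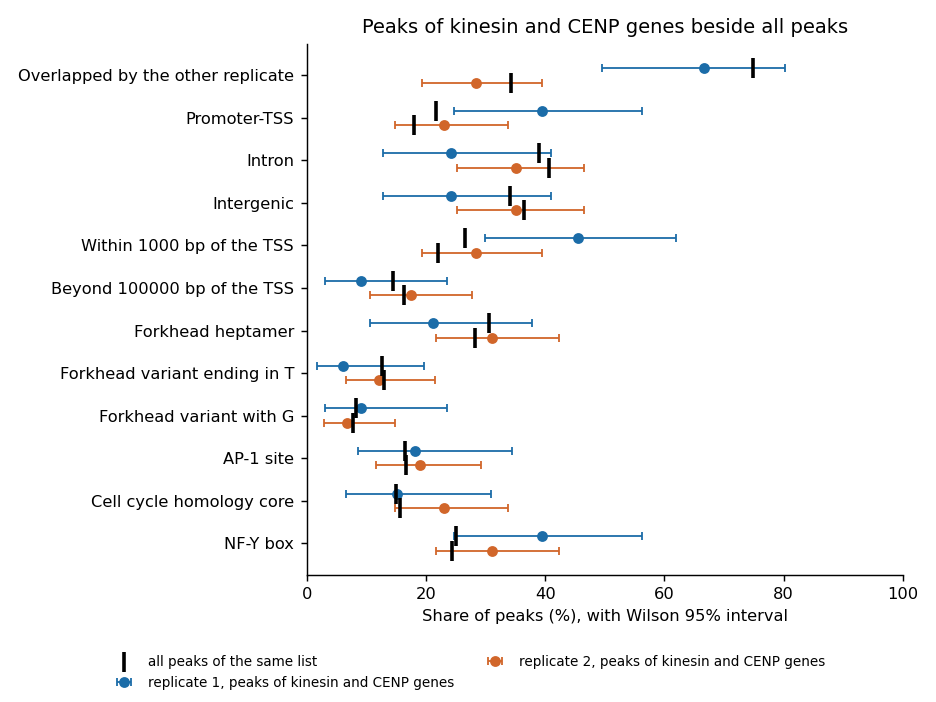
Share of peaks (x axis, percent) with each property (y axis) in replicate 1 (blue) and replicate 2 (orange); points are peaks of kinesin and CENP genes with Wilson 95% intervals, and black bars are all peaks of the same list. The black bar lies left of the interval for promoter-TSS and for distance within 1000 bp in replicate 1, and inside the interval in every other row.

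RefSeq promoters (GRCh38.p14, 250 bases before to 50 after the start) were found for 52 of the 63 genes, and show what these genes share apart from peaks. TTTGAA was in 16 of 52 (30.8%, 19.9% to 44.3%) against 12.1% of all protein-coding promoters, and in 9 of the 13 kinesins of division (69.2%, 42.4% to 87.3%). CCAAT was in 26 of 52 (36.9% to 63.1%) against 36.4%, and in 10 of those 13 (76.9%, 49.7% to 91.8%). TGTTTAC was in the promoter of CENPQ alone (1.92%) against 2.61%. A match is a description of the letters and not a bound site.

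The partners of these genes were counted in a list of 47, covering the KMN network, the spindle checkpoint, the chromosome passenger complex, CENP-A deposition, spindle assembly, kinesin light chains and adaptors, regulators of mitotic genes and CENP-R. Of the 47, 19 had a peak in replicate 1 (40.4%, against 31.3% of all protein-coding genes), 29 in replicate 2 (61.7% against 51.7%), 16 in both (34.04% against 28.6%) and 14 an overlapping pair (29.8% against 25.5%). A pair of promoter peaks was found for 10 (21.3% against 9.02%), the count furthest above that of all genes as a ratio, and 15 had no peak. The list was chosen with earlier results known and no test was made on it. ECT2, the exchange factor that starts furrow formation in cytokinesis, had the best pair, a promoter peak at ranks 331 and 281 (scores 18.9 and 38.7) with TGTTTAC in both. TRAK1, which links kinesin-1 to mitochondria, followed with a pair at -6581 bp and -6535 bp from its start, at ranks 438 and 330, and KLC2, a kinesin light chain, with an intron pair at ranks 813 and 542. In the chromosome passenger complex, INCENP, its scaffold, had a distant pair at ranks 1147 and 880, CDCA8 (borealin) had a promoter pair at ranks 1751 and 2582, and AURKB and BIRC5 had no peak. FOXM1, a forkhead regulator of mitotic genes, had no assigned peak either, and LIN54, the DREAM subunit that binds the TTTGAA region, had a promoter pair at ranks 4101 and 4575.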

How the data were processed

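Peak lists of FOXK2 ChIP-seq from 2 biological replicates of OVCAR5 cells were used. The authors mapped single-end reads to hg38 with Bowtie2 2.2.6 and called peaks in each replicate with HOMER 4.10. Each deposited list holds positions, a peak score (tags scaled to the library) and a focus ratio (the fraction of tags on the expected side of the centre, by the authors' software). It also gives each peak an assigned gene, the distance to the listed TSS and an annotation class. Lists were used as deposited. The members, gene lists and motifs were chosen with earlier results of these data known, so no test was made, and shares stand beside those of all genes or all peaks. Tags were recovered from the step of the scores, assuming that HOMER scaled each library to 10000000 tags (its default). The weakest peaks then held 16 and 21 tags, the libraries held about 53011026 and 67240452 tags, and peaks spanned 210 bp and 256 bp. Poisson and Wilson intervals (95%) cover counting error only, and reads without molecular identifiers are not independent molecules.

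Peaks counted as shared when they overlapped by 1 bp. Motif windows reached 100 bp to each side of the centre. Entrez IDs joined the lists to RefSeq genes, and GENCODE release 44 gave spans and starts, with chromosome names and lengths checked against hg38. Genes described one by one were those with a pair of promoter peaks, the 12 with the best mean percentile of a pair, and KIF11, KIF20A, KIF20B, KIF23, KIFC1, CENPA, CENPE and CENPF. KIF2A, KIF2C, CENPK, CENPN, CENPP, KIF9, the LOC388282 pair and the pathway genes named were chosen after their values were seen. Sequences of up to 200 bases around the overlap midpoint were shortened to keep at most 30 bases of annotated UTR. Alternatives covered list length, score, distance to the TSS, overlap, peak class, gene assignment, motif window and letters, and leaving out each replicate. The overlap and the motif search were also tested on simulated data. Software was pysam 0.24.0, pandas 2.3.3 and numpy 2.4.6 with scipy 1.17.1, and matplotlib 3.10.9, in Python 3.11.15.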

Additional observations from a re-analysis of the deposited data

How the results depend on the processing

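The number of kinesin and CENP genes with a peak in both replicates (20) became 10 in the higher-scoring part of each list, 12 with peaks within 10000 bp of the start and 7 with promoter peaks alone. Settings chosen after seeing the data gave 9 (overlapping pair within 1000 bp of the listed start) and 12 (overlapping pair within 1000 bp of a GENCODE start). With each replicate left out in turn, 26 to 35 genes had a peak. The higher-scoring part moved the overlapped share of replicate 1 peaks to 85.7% (88.4% of all peaks in that part), the promoter share of replicate 2 to 42.9% (23.7% of all) and the TGTTTAC share of replicate 1 to 50%, above the 28.6% of replicate 2 and so opposite in order to the full lists. Lists of equal length moved the overlapped share of replicate 2 to 66.7% and its promoter share to 44.4%, above the 39.4% of replicate 1 and so opposite in order to the full lists. Peaks within 10000 bp of the start moved the overlapped share of replicate 2 to 44.8% and the promoter shares to 68.4% and 58.6%, the last 2 by construction, since only peaks that are not promoter peaks were removed. Counting all 3 forkhead heptamers raised the replicate 2 share to 45.9%. The cause of the other shifts was not tested. Of 44 alternatives, 29 stayed within 1.5 times the count or within the interval of the share. No paired analysis was made, since no result came from a test, and the input libraries, which share the replicate numbers, were not analysed here. The shares within each replicate have no value without that replicate. Replicate 2 had 27281 peaks against 12471, from an implied 67240452 against 53011026 tags, and the part of depth in this was not tested. A gene without a peak in replicate 1 is one with none listed there, where the weakest peak held 16 tags, and its signal below the calls is not known.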
